A study of Mus musculus with 17 samples.

Results

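The 10 genes described here serve the storage and use of fatty acids: Plin2, Hilpda, G0s2 and Dgat2 of lipid droplets, the fatty acid carriers Fabp4 and Fabp5, Lpl, Acsl1 and Cpt1a of fatty acid supply and oxidation, and the nuclear receptor gene Pparg. They were chosen by gene name, and all 10 were found among the 31091 gene identifiers of the count table. RNA was sequenced from splenic type 1 and type 2 conventional dendritic cells (cDC1s and cDC2s) after 6 h with medium of TC-1 cells, a mouse lung carcinoma line. The medium came from TC-1 WT cells, from TC-1-iBimS cells dying by apoptosis, or from TC-1-iRIPK3 cells dying by necroptosis, so that the effects of both kinds of debris could be set against living cells and against each other. The 17 samples fell into 6 groups, with 3 samples each of cDC1s with WT, BimS and RIPK3 medium, 3 each of cDC2s with WT medium and BimS medium, and 2 of cDC2s with RIPK3 medium. The cells came from 8-week-old female C57BL/6JRj mice bearing a B16-FLT3L tumor to expand their dendritic cells, and spleens of more than 1 mouse were pooled. All TC-1 cells, WT included, had received cumate, the inducer of the BimS or RIPK3 transgene, and every culture held GM-CSF. The debris lines were clonal, the RIPK3 was a self-oligomerizing fusion, and the medium was added with all its contents. The cDC1s and cDC2s were separated by flow sorting after the culture, so each subset had been cultured beside the other. In the study's uptake assay, both subsets took up more apoptotic than necroptotic debris, and cDC1s took up more than cDC2s. The debris for sequencing carried no dye, so cells with and without uptake were not told apart.

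Cells store surplus fatty acids as triglycerides and steryl esters in lipid droplets, which form at the endoplasmic reticulum and are coated by perilipins. Stored lipid is released by lipases, activated to acyl-CoA and then used for membranes, for signaling lipids or for oxidation in mitochondria. A dendritic cell that takes up a dead cell also takes up its membranes, and droplets in dendritic cells are known to affect antigen presentation.

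The total gene count per sample was between 16095159 and 21645289. The sorted cells carried the markers of their labels. The summed level of 8 cDC1 markers, among them Clec9a and Xcr1, was 1628 to 1974 CPM (counts scaled to the library total) in cDC1s and 119 to 164 CPM in cDC2s. The sum of 8 cDC2 markers, among them Sirpa and Clec10a, was 288 to 380 CPM in cDC2s and 2.46 to 4.12 CPM in cDC1s. Because the debris was mouse tissue, 20 genes of adherent and epithelial tumor cells were followed, of which 17 were in the table. Their sum in cDC1s was 6.72 to 7.87 CPM with WT medium, 7.04 to 11.0 CPM with BimS and 9.16 to 11.7 CPM with RIPK3. In cDC2s it was 83.0 to 95.3, 159 to 201 and 155 to 173 CPM, most of it from Thbs1, whose mean was 49.0, 144 and 137 CPM. The keratin gene Krt8 and the collagen gene Col1a1 had 0 to 3 counts in every sample. The sum of 12 macrophage genes moved the other way, from 65.1 to 68.6 CPM with WT medium to 38.2 to 47.0 with BimS and 28.1 to 31.5 with RIPK3 in cDC1s. In cDC2s it went from 61.6 to 68.8 CPM to 46.9 to 52.4 and 37.5 to 40.9. Of 7 adipocyte genes, 6 were in the table, and they summed to under 1 CPM in every sample. B cell genes in cDC2s summed to 34.8 to 41.1 CPM with WT medium, 27.0 to 33.0 with BimS and 45.5 to 46.5 with RIPK3. Monocyte and neutrophil genes in cDC1s summed to 5.56 to 7.35 CPM with WT or BimS medium and 8.24 to 10.6 with RIPK3. Plasmacytoid dendritic cell genes in cDC2s were at 187 to 215 CPM with WT or BimS medium and 172 with RIPK3. Each of these sums rests on few genes. In cDC2s, 5 of 6 B cell genes and 4 of 6 plasmacytoid genes had a mean under 1 CPM in every group. So had 7 of 9 monocyte and neutrophil genes in cDC1s. Of the 12 macrophage genes, 8 to 10 were under 1 CPM in cDC1s and 6 to 8 in cDC2s. The part of these cells or RNAs in the results was not tested. In bulk samples, fewer cells of a type and less RNA per cell cannot be told apart.

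The 4 members that differed between media were Hilpda, Fabp5, Acsl1 and Plin2, and the DNA just upstream of their start sites is shown because these were the genes that moved. Each window covers the 300 bases before the start of the canonical transcript in GRCm39, read 5′ to 3′ on the strand of the gene, and capitals mark the hypoxia element cores ACGTG and GCGTG, searched on both strands. Hilpda lies on chromosome 6 from 29272409 to 29276301 on the plus strand (ENSMUSG00000043421), Fabp5 on chromosome 3 from 10077602 to 10081674 on the plus strand (ENSMUSG00000027533), Acsl1 on chromosome 8 from 46924063 to 46990145 on the plus strand (ENSMUSG00000018796), and Plin2 on chromosome 4 from 86565912 to 86588459 on the minus strand (ENSMUSG00000028494).
Hilpda, chr6:29272109-29272408: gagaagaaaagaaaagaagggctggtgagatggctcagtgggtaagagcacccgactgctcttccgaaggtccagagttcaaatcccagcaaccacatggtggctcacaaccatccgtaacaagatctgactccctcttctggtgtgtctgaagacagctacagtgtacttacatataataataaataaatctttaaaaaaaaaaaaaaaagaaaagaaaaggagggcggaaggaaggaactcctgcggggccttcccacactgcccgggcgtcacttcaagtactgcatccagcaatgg
Fabp5, chr3:10077302-10077601: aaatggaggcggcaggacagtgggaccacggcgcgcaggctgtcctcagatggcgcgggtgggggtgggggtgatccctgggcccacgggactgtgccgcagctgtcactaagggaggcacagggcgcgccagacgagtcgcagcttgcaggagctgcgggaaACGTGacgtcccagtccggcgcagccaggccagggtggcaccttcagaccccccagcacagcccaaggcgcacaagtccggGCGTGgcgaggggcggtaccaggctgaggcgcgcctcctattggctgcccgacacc
Acsl1, chr8:46923767-46924066: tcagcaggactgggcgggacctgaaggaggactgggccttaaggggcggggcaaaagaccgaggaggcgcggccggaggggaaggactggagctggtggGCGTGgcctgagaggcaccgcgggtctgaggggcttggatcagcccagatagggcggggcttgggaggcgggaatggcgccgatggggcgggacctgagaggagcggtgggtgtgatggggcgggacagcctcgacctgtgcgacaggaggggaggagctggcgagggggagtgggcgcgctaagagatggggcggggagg
Plin2, chr4:86588460-86588759: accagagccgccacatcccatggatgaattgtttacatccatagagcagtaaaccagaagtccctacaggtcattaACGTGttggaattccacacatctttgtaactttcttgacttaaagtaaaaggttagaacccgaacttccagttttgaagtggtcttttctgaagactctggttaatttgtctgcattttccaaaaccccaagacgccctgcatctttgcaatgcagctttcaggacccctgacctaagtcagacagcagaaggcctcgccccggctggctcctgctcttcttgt
The Hilpda window held neither core. The Fabp5 window held ACGTG at -137 to -133 and GCGTG at -56 to -52 from the start, the Acsl1 window GCGTG at -201 to -197, and the Plin2 window ACGTG at -224 to -220. The cores were not particular to the genes that moved. Among the other members, Dgat2 had ACGTG matches that began at -296, -295 and -275. Lpl had GCGTG at -269 to -265, G0s2 had it at -227 to -223 and -113 to -109, and Pparg, Fabp4 and Cpt1a had neither core. Over 17437 windows of the same length upstream of protein-coding genes, ACGTG was in 22.0% and GCGTG in 39.6%. The PPAR response element, a pair of AGGTCA repeats set 1 base apart, was in 0.0459% of these windows and in none of the 10 members. An antioxidant element spelled TGACNNNGC was in 11.9% of windows and in none of the 4 windows shown. The annotated start decides what the window covers. In the RefSeq windows of GRCm38.p6, which run from 250 bases before to 50 bases after a start and held 6 of the 10 members, 1 of 2 Hilpda windows had ACGTG and both had GCGTG, 1 of 2 Acsl1 windows had GCGTG, and the Plin2 window had both cores. Of all 32851 RefSeq windows, 19.6% held ACGTG and 32.4% GCGTG.

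Before the media were compared, the level of each member was set per length of its canonical transcript, so that genes could be compared with each other. In cDC1s with WT medium, Acsl1, which activates long-chain fatty acids to acyl-CoA, stood first at 39.1 ± 2.98 CPM per kb (SD, n = 3). It was followed by the droplet coat gene Plin2 at 8.15 ± 0.661, by Cpt1a, which loads fatty acids for entry into mitochondria, at 5.12 ± 0.447, and by Fabp5 at 4.73 ± 0.101 CPM per kb. Pparg had 1.78 ± 0.185, Dgat2, which completes triglyceride synthesis, 0.5998 ± 0.0334, and Hilpda 0.254 ± 0.0512 CPM per kb. The sample ranges of neighbors in this order did not overlap down to Hilpda, while the lowest 3, Fabp4, Lpl and G0s2, overlapped. In cDC2s with WT medium the order began with Fabp5 at 241 ± 9.19 CPM per kb, then Acsl1 at 31.8 ± 2.47, Plin2 at 7.49 ± 1.01 and Cpt1a at 2.50 ± 0.127. There, Pparg at 1.13 ± 0.283 and Dgat2 at 0.853 ± 0.185 CPM per kb overlapped, as did Hilpda at 0.625 ± 0.134 and Fabp4 at 0.596 ± 0.0593. With debris, Hilpda moved up in the order of cDC2s and stood at 2.12 ± 0.125 CPM per kb with BimS and 3.55 ± 0.554 (n = 2) with RIPK3, the latter above Cpt1a at 2.60 ± 0.237.

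**Figure D1:**
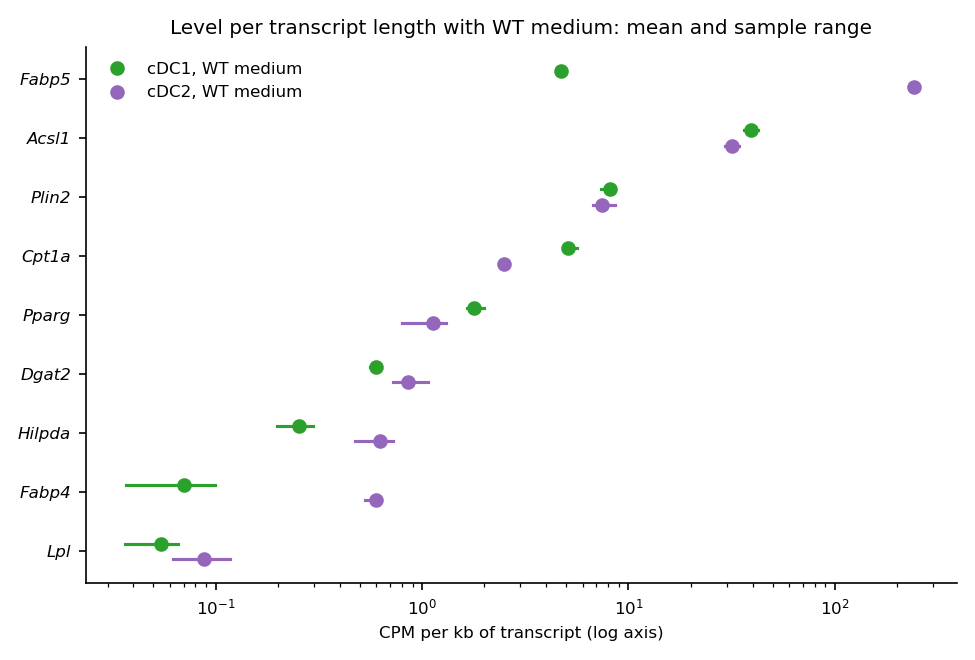
Level of the members per kb of canonical transcript with WT medium, on a log axis in CPM per kb, for cDC1s and cDC2s; points are means of 3 samples and lines span the lowest to the highest sample. G0s2 is left out because it was 0 in some samples; Fabp5 differs most between the subsets, at 4.73 and 241 CPM per kb.

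In the test of cDC1s against cDC2s with WT medium, 6 of the 9 members tested differed, 3 higher and 3 lower in cDC1s, beside 46.2% of all 19082 genes tested. G0s2 was not tested, because it had counts in fewer than 50% of the samples. The largest difference was that of Fabp5, which carries fatty acids in the cytosol and is known from skin and macrophages. Its level was 4.76, 4.58 and 4.74 CPM in the cDC1 samples and 239, 231 and 249 CPM in the cDC2 samples. This is a log2 difference of -5.68 (SE 0.0916, adjusted p = 3.04e-27). The related carrier Fabp4, known from adipocytes, had 6 counts in the 3 cDC1 samples together and 45 in the 3 cDC2 samples, a ratio of 8.33 with a 95% counting interval of 3.54 to 23.9. Both carriers thus stood higher in cDC2s, and for Fabp4 the ratio was 12.9 (4.05 to 65.5) with BimS and 5.74 (2.22 to 17.5) with RIPK3, on 3 and 6 counts in cDC1s. Hilpda was lower in cDC1s by a log2 difference of -1.32 (SE 0.290, adjusted p = 0.000372). Cpt1a was 2.03-fold higher in cDC1s (log2 1.02, SE 0.0855, adjusted p = 3.23e-11) and Acsl1 1.22-fold higher (log2 0.29, SE 0.0748, adjusted p = 0.00207). Pparg was 1.58-fold higher in cDC1s (log2 0.66, SE 0.199, adjusted p = 0.00748), a call that was lost without replicate 1 of cDC2s with WT medium (adjusted p = 0.0713; over all alternatives 0.000986 to 0.0713). Plin2 did not differ beyond its error, with a log2 difference of 0.11 and a 95% interval of -0.13 to 0.36. Dgat2 had a log2 difference of -0.52 (-0.95 to -0.083, adjusted p = 0.0574), which passed with filterByExpr (adjusted p = 0.0429) and without replicate 2 of cDC2s with WT medium (-0.61, adjusted p = 0.0441; up to 0.327 under the others). Lpl was at 3 to 6 counts in cDC1s and 5 to 9 in cDC2s.

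**Figure D2:**
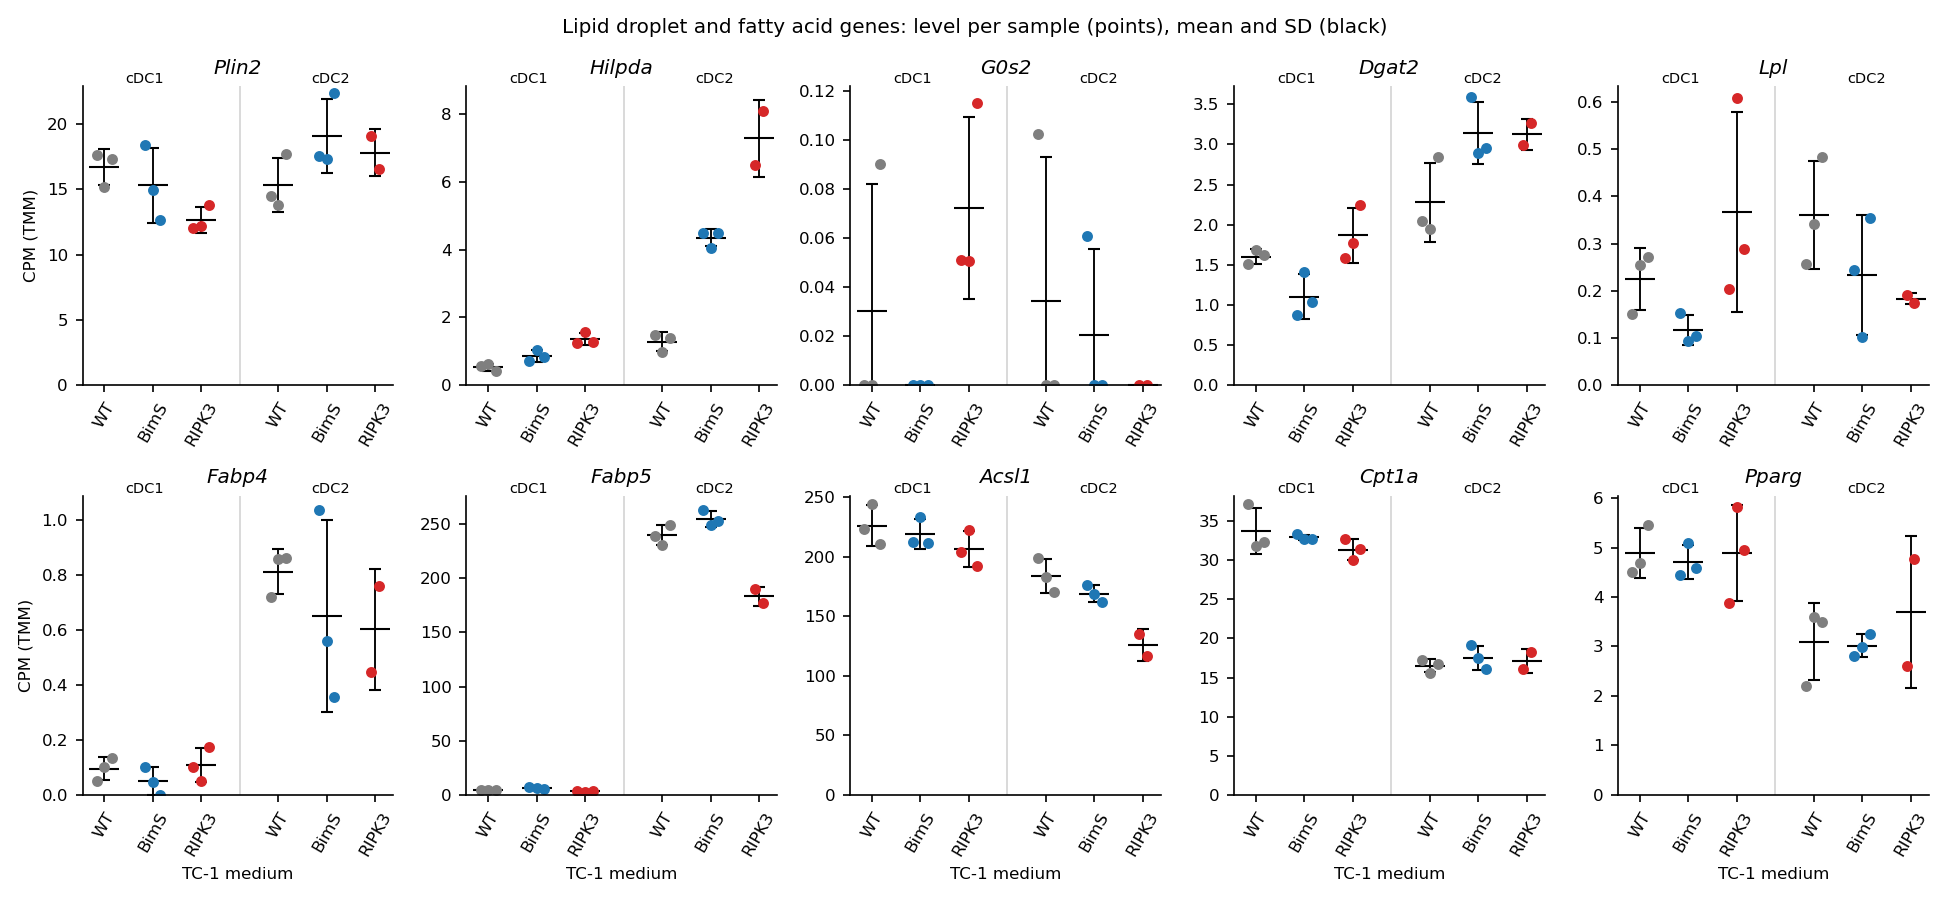
Level of each of the 10 members in every sample, in CPM on a linear axis that starts at 0 and differs between panels; points are samples, black marks are the mean and SD, and groups are cDC1s and cDC2s with WT, BimS and RIPK3 medium. Hilpda climbs from WT to BimS to RIPK3 in both subsets, Fabp5 is lowest with RIPK3 in both, and the axis for Fabp5 is set by the cDC2s at 177 to 263 CPM.

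Between media, 9 of 54 member tests passed an adjusted p of 0.05, and these came from 4 members, while 5 tested members passed in no comparison. In cDC1s, none of 9 members passed for BimS against WT with edgeR, with DESeq2 or with limma, while 13.2% of all 19513 genes passed. An unadjusted p under 0.05 was reached by 2 of 9 members and by 4474 of all genes. For RIPK3 against WT in cDC1s 3 passed, Hilpda higher and Plin2 and Fabp5 lower (16.5% of all genes), and for RIPK3 against BimS Fabp5 passed, lower (4.15%). In cDC2s, Hilpda passed for BimS against WT (7.01% of all 19239 genes). For RIPK3 against WT in cDC2s 3 passed, Hilpda higher and Fabp5 and Acsl1 lower (7.21%), and for RIPK3 against BimS Fabp5 passed, lower (0.379%). The comparisons of a subset share samples, so these counts are not independent. Where groups are said not to overlap, this describes 2 or 3 samples per group and is given without the share over all genes. The median log2 fold change of the 9 members lay between -0.082 and 0.085 in the 6 comparisons, and that of all genes tested between -0.022 and 0.0017. These medians include the fitted values of Fabp4 and Lpl at their low counts, and members that moved in opposite directions.

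**Figure D3:**
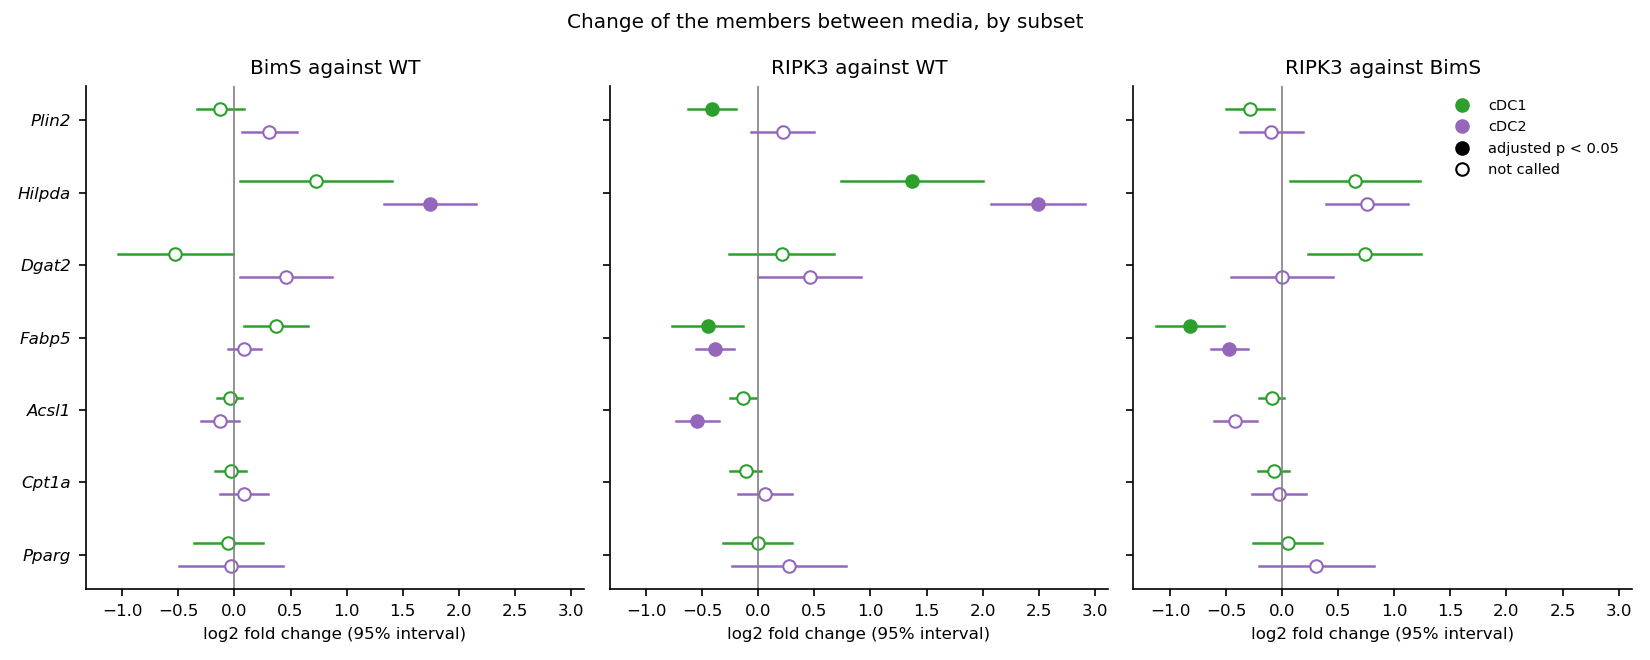
Log2 fold change between media for 7 members, with 95% intervals (1.96 SE), in 3 panels, BimS over WT, RIPK3 over WT and RIPK3 over BimS; green is cDC1, purple is cDC2, and filled points have an adjusted p under 0.05. Fabp4, Lpl and G0s2 are left out for their low counts; Hilpda lies right of 0 in all panels and Fabp5 left of 0 wherever RIPK3 is compared.

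Among the droplet genes, Hilpda changed most. It encodes a small droplet protein known to be induced by hypoxia and by fatty acids and to inhibit the lipase Pnpla2. In cDC2s its level was 1.49, 0.970 and 1.40 CPM with WT medium, 4.50, 4.06 and 4.50 CPM with BimS, and 6.49 and 8.10 CPM with RIPK3. The 3 groups did not overlap, and RIPK3 stood highest. Hilpda rose 3.35-fold with BimS (log2 1.74, SE 0.210, adjusted p = 1.44e-05) and 5.64-fold with RIPK3 (log2 2.50, SE 0.216, adjusted p = 1.95e-07). Between the debris types, both RIPK3 samples were above all BimS samples, with a log2 difference of 0.75 (SE 0.187, adjusted p = 0.0967). That difference passed with the replicate number as a block (0.79, adjusted p = 0.000251), without a filter on low counts (adjusted p = 0.0247) and without replicate 3 of WT (adjusted p = 0.0440), while the adjusted p reached 0.956 without RIPK3 replicate 2.

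In cDC1s, Hilpda was lower throughout, at 0.551, 0.610 and 0.406 CPM with WT medium, 0.714, 1.04 and 0.824 CPM with BimS and 1.23, 1.57 and 1.27 CPM with RIPK3, which corresponds to 9 to 31 counts per sample. The groups again did not overlap and stood in the same order. The rise with RIPK3 was 2.59-fold (log2 1.37, SE 0.323, adjusted p = 0.00184). With BimS the log2 fold change was 0.73 with a 95% interval of 0.048 to 1.40 (adjusted p = 0.198), and between RIPK3 and BimS it was 0.65 (0.066 to 1.22, adjusted p = 0.270). The calls of Hilpda against WT were kept under every alternative, with log2 fold changes of 1.19 to 1.498 in cDC1s with RIPK3, 1.59 to 1.86 in cDC2s with BimS and 2.30 to 2.64 in cDC2s with RIPK3. The sum of the tumor cell markers given above stood in the same order as Hilpda in cDC1s, with overlapping groups, and in cDC2s it was above WT with either debris but not higher with RIPK3 than with BimS. Its part in the result was not tested.

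Plin2, which coats droplets in most cell types and whose protein is stable on droplets and degraded off them, had levels of 17.6, 15.2 and 17.3 CPM in cDC1s with WT medium, 18.4, 14.9 and 12.7 CPM with BimS and 12.0, 12.2 and 13.8 CPM with RIPK3. The RIPK3 samples lay below all WT samples, while BimS overlapped both. Plin2 was lower with RIPK3 than with WT by a log2 fold change of -0.41 (SE 0.109, fold 0.752, adjusted p = 0.00658). For RIPK3 against BimS in cDC1s the log2 difference was -0.29 (SE 0.110, adjusted p = 0.167), and it passed with the replicate block (-0.28, adjusted p = 0.0412) and without replicate 3 of BimS (-0.40, adjusted p = 0.0419), with adjusted p up to 0.655 under the other alternatives. In cDC2s the levels were 14.5, 13.8 and 17.7 CPM with WT medium, 17.6, 17.3 and 22.4 CPM with BimS and 19.1 and 16.5 CPM with RIPK3. The WT group overlapped the others through its replicate 3, and BimS and RIPK3 overlapped each other. That WT replicate stood apart from replicates 1 and 2 by a chi-squared of 32.4 and 14.4 per gene, against 8.05 between those 2. Pairs within the other cDC2 groups had 6.53 to 13.6. The log2 fold changes of Plin2 were 0.31 (0.063 to 0.56, adjusted p = 0.178) with BimS and 0.22 (-0.064 to 0.50, adjusted p = 0.480) with RIPK3. With the replicate block both passed, at 0.31 (adjusted p = 0.00203) and 0.33 (adjusted p = 0.00808), and without replicate 3 of WT the BimS value was 0.42 (adjusted p = 0.0420). Over the alternatives the adjusted p of these 2 values reached 0.527 and 0.927.

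Dgat2, the diacylglycerol acyltransferase that feeds growing droplets, passed in no comparison between media. In cDC1s it had 1.504, 1.68 and 1.62 CPM with WT medium, 0.867, 1.41 and 1.03 CPM with BimS and 1.59, 1.77 and 2.25 CPM with RIPK3. All BimS samples were below all other cDC1 samples, at 17 to 30 counts, with log2 fold changes of -0.53 (-1.04 to -0.016, adjusted p = 0.221) for BimS against WT and 0.73 (0.23 to 1.24, adjusted p = 0.112) for RIPK3 against BimS. In cDC2s the means were 2.28 ± 0.493 CPM with WT medium, 3.15 ± 0.386 with BimS and 3.13 ± 0.193 (n = 2) with RIPK3. G0s2, an inhibitor of the lipase Pnpla2, had 0 to 2 counts in every sample and lies over Lamb3 on the opposite strand, so its counts allow no comparison at this depth.

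Fabp5 passed between the debris types in both subsets. In cDC1s its levels were 4.76, 4.58 and 4.74 CPM with WT medium, 6.94, 5.94 and 5.30 CPM with BimS and 3.89, 2.99 and 3.46 CPM with RIPK3. The 3 groups did not overlap, with BimS above WT and RIPK3 below it. The log2 fold change of RIPK3 against BimS was -0.82 (SE 0.155, fold 0.566, adjusted p = 0.000889), and it was kept under every alternative, at -0.92 to -0.71. Against WT, BimS gave 0.37 (0.083 to 0.66, adjusted p = 0.0988) and RIPK3 -0.45 (SE 0.1604, fold 0.731, adjusted p = 0.0487). The RIPK3 value was close to the threshold, and 10 of 15 alternatives lost the call, among them DESeq2 (adjusted p = 0.0816) and leaving out any replicate of WT (adjusted p = 0.115, 0.0869 and 0.119), RIPK3 replicates 2 and 3 (0.224 and 0.0708) or BimS replicates 2 and 3 (0.0528 for each); the direction was kept in all 15.

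In cDC2s, where Fabp5 was far more abundant, the levels were 239, 231 and 249 CPM with WT medium, 263, 249 and 253 CPM with BimS and 190 and 177 CPM with RIPK3. The 2 RIPK3 samples were below all others. Fabp5 fell with RIPK3 by a log2 fold change of -0.39 against WT (SE 0.0853, fold 0.766, adjusted p = 0.00635) and of -0.47 against BimS (SE 0.0855, fold 0.721, adjusted p = 0.0141), while BimS against WT gave 0.086 (-0.061 to 0.23, adjusted p = 0.624). The group has 2 samples, and without RIPK3 replicate 2 the first call was lost (-0.33, adjusted p = 0.167) and so was the second (-0.42, adjusted p = 0.617). The second was also lost without RIPK3 replicate 1 (adjusted p = 0.105) and without BimS replicate 1 or 2 (adjusted p = 0.0902 and 0.0603), with all values between -0.58 and -0.42. Where RIPK3 is left with 1 sample, that sample is assumed to vary like the other groups. Fabp5l2, a processed pseudogene of Fabp5, had 0 to 1 counts. Fabp4 had 14 to 16 counts in cDC2s with WT medium, 6 to 17 with BimS and 7 to 13 with RIPK3, and no change was detectable at this depth.

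Of the genes of fatty acid supply and use, Acsl1 changed in cDC2s. Its levels there were 199, 183 and 170 CPM with WT medium, 176, 169 and 162 CPM with BimS and 136 and 117 CPM with RIPK3. The RIPK3 samples were below all others, and BimS and WT overlapped. Acsl1 fell with RIPK3 by a log2 fold change of -0.545 (SE 0.0981, fold 0.685, adjusted p = 0.000974), a call lost without RIPK3 replicate 2 (-0.43, adjusted p = 0.0948; highest over the alternatives). Against BimS the log2 difference was -0.42 (SE 0.0978, adjusted p = 0.0692), and it passed with DESeq2 (adjusted p = 0.0220), with no filter (adjusted p = 0.00463), with the replicate block (-0.47, adjusted p = 4.96e-16) and without WT replicate 1 or 3 (adjusted p = 0.0267 and 0.00846), while without RIPK3 replicate 2 the adjusted p reached 0.956. For BimS against WT it was -0.13 (-0.29 to 0.043, adjusted p = 0.495), which passed with the block alone (-0.12, adjusted p = 0.0277; up to 0.746). In cDC1s the levels were 223, 245 and 211 CPM with WT medium, 213, 234 and 212 CPM with BimS and 204, 223 and 193 CPM with RIPK3, and all groups overlapped. The log2 fold change with RIPK3 was -0.14 (-0.25 to -0.024, adjusted p = 0.113), and it passed with the block (-0.14, adjusted p = 0.00802) and without RIPK3 replicate 2 (-0.20, adjusted p = 0.0221) or WT replicate 3 (-0.19, adjusted p = 0.0378), with adjusted p up to 0.535 under the others. Gm45244, which overlaps Acsl1 on the opposite strand, had 1 to 15 counts.

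Cpt1a, the gate of mitochondrial fatty acid oxidation, passed in no comparison between media. Its means in cDC1s were 33.8 ± 2.95 CPM with WT medium, 32.9 ± 0.343 with BimS and 31.4 ± 1.34 with RIPK3. In cDC2s they were 16.5 CPM, 17.5 ± 1.53 and 17.1 ± 1.56 (n = 2) CPM. The 95% intervals of its log2 fold changes against WT ran from -0.25 to 0.10 in cDC1s and from -0.19 to 0.30 in cDC2s, which bounds the size of any change. Lpl, the lipase that releases fatty acids from lipoproteins at the cell surface, had 2 to 12 counts per sample. Its counts were 3, 5 and 6 in cDC1s with WT medium, 3, 2 and 2 with BimS and 4, 12 and 5 with RIPK3, which allows no fold change to be given.

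Pparg encodes the nuclear receptor that senses fatty acids and drives Fabp4 and Plin2 in adipocytes and macrophages. Its means in cDC1s were 4.88 ± 0.505 CPM with WT medium, 4.70 ± 0.342 with BimS and 4.89 ± 0.971 with RIPK3. In cDC2s they were 3.10 ± 0.774, 3.02 ± 0.229 and 3.69 ± 1.53 (n = 2) CPM, where the RIPK3 samples were far apart, at 2.61 and 4.78 CPM. The log2 fold changes against WT were -0.055 (-0.36 to 0.25) with BimS and -0.0073 (-0.31 to 0.30) with RIPK3 in cDC1s, and -0.034 (-0.50 to 0.43) and 0.27 (-0.24 to 0.78) in cDC2s.

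Whether the subsets answered the debris differently was tested as an interaction over all 17 samples, in which a positive value means a higher fold change in cDC1s. With edgeR none of 9 members passed for BimS against WT (0.870% of all genes), RIPK3 against WT (1.14%) or RIPK3 against BimS (0.0314%), and none did with DESeq2 or limma. An unadjusted p under 0.05 was reached by 4, 3 and 3 members, and by 1623, 1635 and 972 of all 19082 genes. For Hilpda the interaction was -1.02 (95% interval -1.78 to -0.26, adjusted p = 0.354) with BimS and -1.13 (-1.88 to -0.39, adjusted p = 0.216) with RIPK3. For Plin2, whose fold change with RIPK3 was below 0 in cDC1s and above 0 in cDC2s, the interaction was -0.63 (-1.01 to -0.26, adjusted p = 0.135). It passed with the replicate block (-0.67, adjusted p = 0.0251), with no filter (adjusted p = 0.0157) and without replicate 3 of cDC2s with WT medium (adjusted p = 0.0337), and over all alternatives the adjusted p reached 0.496. For Acsl1 it was 0.40 (0.18 to 0.62, adjusted p = 0.0967) with RIPK3, and it passed under the same 3 alternatives (0.44, 0.42 and 0.45, adjusted p = 0.00282, 0.0126 and 0.0184), with an adjusted p of up to 0.605 under the others. The interaction was for Dgat2 -0.98 (-1.61 to -0.36, adjusted p = 0.212) with BimS. For Fabp5 in RIPK3 against BimS it was -0.36 (-0.63 to -0.081, adjusted p = 0.894). For Plin2 and Acsl1 the call thus depended on the processing, and for the other members the intervals leave room for a difference between subsets.

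The members did not move as 1 group across samples either. With the mean of each subset taken off, Pearson correlations of log2 CPM over the 17 samples were -0.67 for Hilpda and Acsl1, -0.61 for Fabp5 and Dgat2, 0.53 for Hilpda and Dgat2 and 0.46 for both Plin2 and Fabp5 and Fabp5 and Acsl1. These are descriptions over samples that share media and replicate numbers. The genes most alike to Fabp5, out of 7779 with a mean log2 CPM of 3 or more, were S100a10 (r = 0.90), Sphk1 (0.90) and Rps6ka4 (0.90). For Acsl1 they were Rasgrp3 (0.91), Cysltr1 (0.89) and Trim25 (0.89). Plin2 was most like Smarce1 (0.81), Prdx5 (0.79) and Spag7 (0.76), and Cpt1a most like Klhl9 (0.69), Cpsf4 (0.67) and Klhl20 (0.67).

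The other genes of fatty acid and droplet biology were followed in 10 lists around the members. Their counts are to be read against the share of all genes that passed in the same comparison, 13.2% and 16.5% with BimS and RIPK3 in cDC1s and 7.01% and 7.21% in cDC2s. Counts and shares are both of the fit without the replicate block. In lipolysis, 3 of 6 genes rose in cDC1s with either debris and 2 of 6 in cDC2s. Mgll, which splits the last fatty acid from glycerol, had a mean of 0.344 ± 0.103 CPM in cDC1s with WT medium (5 to 8 counts), 5.44 ± 0.302 CPM with BimS and 9.90 ± 1.09 CPM with RIPK3. These groups did not overlap, with log2 fold changes of 3.98 (SE 0.239, adjusted p = 1.89e-15) and 4.83 (SE 0.218, adjusted p = 4.58e-19), and Mgll was higher with RIPK3 than with BimS by 0.86 (SE 0.133, adjusted p = 6.80e-05). In cDC2s Mgll had 0 to 5 counts with WT medium, 10 to 18 with BimS and 17 to 18 with RIPK3. Lipa, the acid lipase that frees fatty acids and cholesterol in lysosomes, went from 87.0 ± 3.89 CPM to 295 ± 21.9 with BimS and 305 ± 15.1 with RIPK3 in cDC1s (log2 1.76 and 1.80, adjusted p = 1.57e-22 and 7.92e-23). In cDC2s Lipa went from 94.9 ± 7.14 to 190 ± 19.9 and 177 ± 2.49 CPM (log2 1.00 and 0.90, adjusted p = 3.30e-07 and 3.17e-06). Abhd5, the activator of Pnpla2, rose in cDC1s by 0.49 and 0.59 (adjusted p = 2.44e-05 and 5.72e-07).

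In the list of droplet coat and assembly 2 of 9 genes rose in cDC1s and 1 of 7 in cDC2s with either debris. Rab18, a small GTPase found on droplets, rose in cDC1s by 0.38 and 0.49 (adjusted p = 3.14e-07 and 1.04e-09), and in cDC2s by 0.28 and 0.39 (adjusted p = 0.0303 and 0.00548), where 6 of 14 alternatives lost the call with BimS and 2 that with RIPK3. Aup1 had 0.17 and 0.22 in cDC1s (adjusted p = 0.0216 and 0.00107), and 5 of 15 alternatives lost the first call and limma the second (adjusted p = 0.587). In triglyceride and steryl ester synthesis, 2 rose and 1 fell of 13 in cDC1s with BimS and 2 rose and 2 fell with RIPK3. Soat1, which esterifies cholesterol, went from 65.9 ± 0.912 CPM to 124 ± 3.21 and 127 ± 7.74 in cDC1s (log2 0.91 and 0.94, adjusted p = 1.34e-15 and 3.54e-16), and stood at 68.1 ± 8.10, 73.6 ± 4.70 and 70.3 ± 0.319 CPM in cDC2s. Lpin2 rose by 0.24 with BimS in cDC1s (adjusted p = 0.00282; lost with limma, adjusted p = 0.296), and Gpat4 fell by 0.27 (adjusted p = 0.000158). With RIPK3, Agpat2 fell by 0.87 and Lpin1 fell by 0.45 (adjusted p = 0.000706 and 0.00828). Between the debris types in cDC1s, Gpat4 was higher with RIPK3 by 0.19 and Agpat3 by 0.18 (adjusted p = 0.0286 and 0.0340), calls lost under 4 and 6 of 15 alternatives. In cDC2s, Gpat3, which starts triglyceride synthesis, rose by 1.19 with BimS and 1.33 with RIPK3 (adjusted p = 0.000606 and 0.000430), and Lpin1 fell by 0.63 with RIPK3 (adjusted p = 0.0272; lost under 5 of 14).

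In fatty acid uptake and binding, 1 gene rose and 1 fell of 9 in cDC1s with BimS, 1 rose and 3 fell with RIPK3, and 1 rose and 1 fell of 10 in cDC2s with either debris. Cd36, the scavenger receptor that takes up fatty acids and oxidized lipoproteins, was the gene that rose in each. Its means were 1325 ± 84.4, 1855 ± 69.9 and 2032 ± 101 CPM in cDC1s and 311 ± 21.9, 553 ± 35.9 and 468 ± 14.9 CPM in cDC2s, with log2 fold changes of 0.49, 0.61, 0.83 and 0.59. Fabp7, a relative of Fabp5, fell by 0.41 in cDC1s with BimS (adjusted p = 0.0268; lost under 3 of 15 alternatives), and in cDC2s it fell by 0.52 and by 0.60 (adjusted p = 0.04996 and 0.0497; lost under 10 and 8 of 14). The fatty acid transporters Slc27a3 and Slc27a1 fell by 0.80 and 0.49 in cDC1s with RIPK3, the latter not without WT replicate 2 (adjusted p = 0.0823). In acyl-CoA synthesis, 3 of 8 rose in cDC1s with BimS. With RIPK3 3 rose and 1 fell there, and in cDC2s 2 rose with either debris and 1 fell with BimS. Acss2, which activates acetate, rose by 0.84 and 0.99 in cDC1s and by 1.34 and 1.10 in cDC2s. Acsl4, a relative of Acsl1 with a preference for polyunsaturated fatty acids, rose by 0.29 and 0.42 in cDC1s (adjusted p = 0.000134 and 1.80e-07), the first lost with limma (adjusted p = 0.128), and Acsl5 fell by 0.22 with RIPK3 (adjusted p = 0.0175; lost under 3 of 15). Acsf3 fell by 0.68 in cDC2s with BimS (adjusted p = 0.0381; lost under 7 of 14).

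In mitochondrial fatty acid oxidation, the pathway that Cpt1a opens, genes went in both directions. Of 20 genes, 1 rose and 1 fell in cDC1s with BimS, 2 rose and 3 fell with RIPK3, and 1 rose and 1 fell in cDC2s with RIPK3, where none passed with BimS. Eci2, which prepares unsaturated chains for oxidation, rose by 0.36 and 0.46 in cDC1s (adjusted p = 0.00743 and 0.000368), the first call lost under 2 of 15 alternatives, of which the one without WT replicate 1 gave an adjusted p of 0.111. Acadm, the medium-chain acyl-CoA dehydrogenase, fell by 0.16 and 0.42 in cDC1s (adjusted p = 0.0182 and 2.09e-08), the first lost under 4 of 15 alternatives, and was lower with RIPK3 than with BimS by -0.26 (adjusted p = 0.00102). Decr1 fell by 0.49 in cDC1s with RIPK3 (adjusted p = 0.0285; lost under 5 of 15) and in cDC2s it fell by 0.77 (adjusted p = 0.0126; lost without either RIPK3 sample). Slc25a20, the carnitine carrier that acts with Cpt1a, rose by 0.40 in cDC2s with RIPK3 (adjusted p = 0.00406; lost with limma, adjusted p = 0.387, and without RIPK3 replicate 1, adjusted p = 0.0690), and was higher by 0.17 with RIPK3 than with BimS in cDC1s (adjusted p = 0.0271; lost under 3 of 15).

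**Figure D4:**
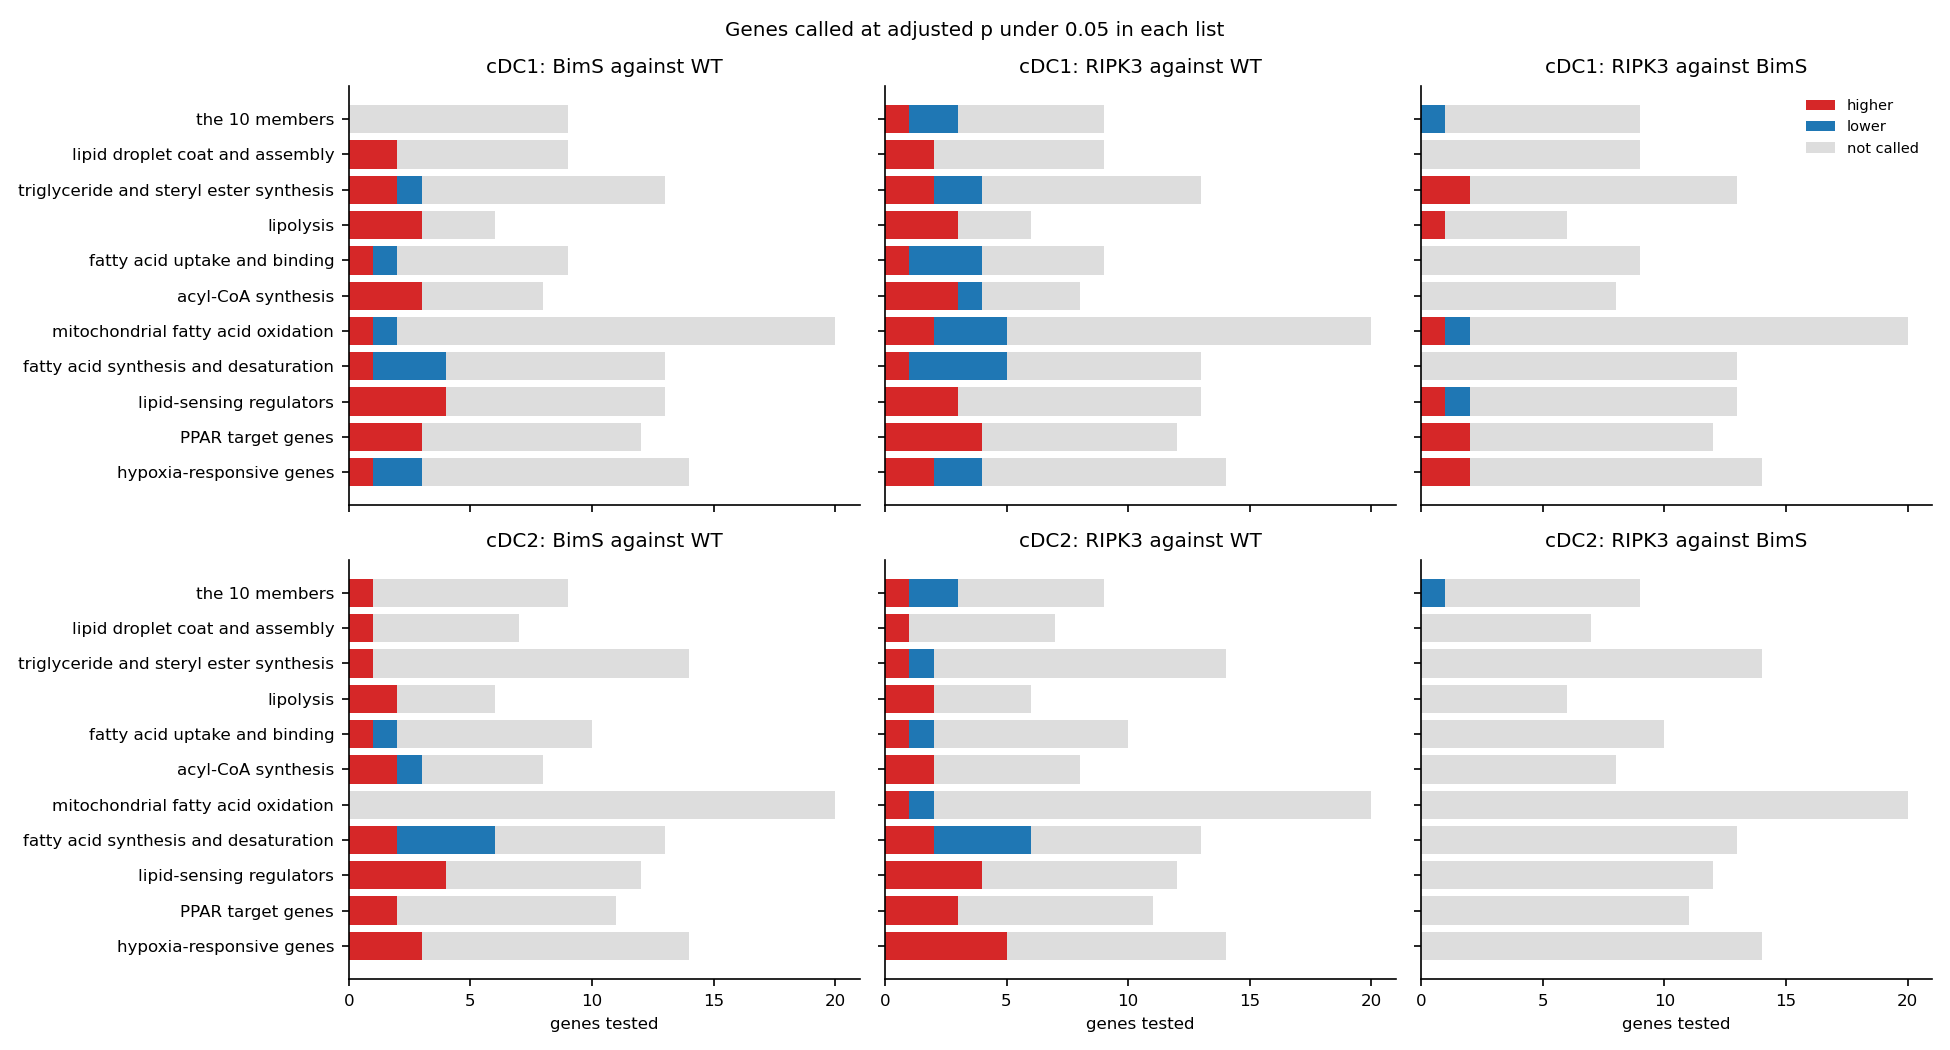
Number of genes tested in each list (bar length) and how many passed an adjusted p of 0.05, higher (red) or lower (blue), in the 6 comparisons between media; grey is the remainder. Lipolysis has 3 of 6 genes higher in cDC1s with either debris, and mitochondrial fatty acid oxidation has 2 to 5 of 20 genes changed in cDC1s.

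In fatty acid synthesis and desaturation more genes fell than rose, with 1 rising and 3 falling of 13 in cDC1s with BimS, 1 and 4 with RIPK3, and 2 and 4 in cDC2s with either debris. Me1, the malic enzyme that supplies NADPH for synthesis, went from 0.963 ± 0.205 to 4.51 ± 0.806 and 4.44 ± 0.750 CPM in cDC1s (log2 2.21 and 2.18, adjusted p = 1.03e-09 and 1.23e-09). In cDC2s it went from 1.70 ± 0.288 to 5.87 ± 0.512 and 5.37 ± 1.67 CPM (log2 1.78 and 1.65, adjusted p = 1.09e-05 and 6.93e-05). Scd1, which puts the first double bond into saturated fatty acids, stood at 87.4 ± 2.08, 36.3 ± 3.33 and 32.7 ± 1.46 CPM in cDC1s, and at 30.6 ± 2.14, 12.4 ± 1.92 and 11.7 ± 2.63 CPM in cDC2s. Scd1 fell by 1.26 and 1.42 on the log2 scale in cDC1s and by 1.30 and 1.38 in cDC2s (adjusted p = 9.26e-18, 4.04e-19, 1.17e-06 and 3.23e-06). Its relative Scd2 fell by 0.69 and by 0.81 in cDC1s (adjusted p = 3.74e-08 and 1.28e-09), and in cDC2s it fell by 0.75 and by 0.97 (adjusted p = 6.46e-05 and 1.21e-05). Elovl5, which lengthens polyunsaturated fatty acids, fell by 0.72 and by 0.67 in cDC1s (adjusted p = 2.09e-12 and 1.00e-11). In cDC2s Elovl5 fell by 0.63 and by 0.43 (adjusted p = 0.000221 and 0.0165), the second not without RIPK3 replicate 2 (adjusted p = 0.414). Fads2, a desaturase of polyunsaturated fatty acids, rose in cDC2s by 0.93 and 0.98 (adjusted p = 0.00819 and 0.0113). The first call was lost without BimS replicate 2 (adjusted p = 0.0758) and the second without either RIPK3 sample. Fads1, another desaturase, fell in cDC2s by 0.74 and by 0.91 (adjusted p = 0.00206 and 0.00112), the second call lost under 1 of 14 alternatives. In cDC1s Fads1 fell by 0.38 with RIPK3 (adjusted p = 0.00323).

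Of 15 lipid-sensing regulators, most did not pass. Of 13 tested in cDC1s 4 rose with BimS and 3 with RIPK3, and of 12 tested in cDC2s 4 rose with either debris, with none lower in these comparisons. Ppard, the widely expressed relative of Pparg, went from 85.2 ± 1.39 to 115 ± 5.13 and 151 ± 2.98 CPM in cDC1s (log2 0.44 and 0.82), and was higher with RIPK3 than with BimS by 0.38 (adjusted p = 4.27e-06; lost with limma, adjusted p = 0.117). In cDC2s Ppard went from 135 ± 4.47 to 193 ± 6.79 and 237 ± 14.5 CPM (log2 0.51 and 0.81, adjusted p = 0.000175 and 1.80e-06). Rxra, the partner of the PPARs on DNA, rose by 0.48 and 0.45 in cDC1s and by 0.54 and 0.45 in cDC2s (adjusted p = 1.41e-05, 3.03e-05, 0.00206 and 0.0185), the last lost under 5 of 14 alternatives. Cebpb, which drives Pparg in adipocyte development, rose by 1.36 and 1.75 in cDC1s (adjusted p = 0.00172 and 0.000322). In cDC2s Cebpb rose by 1.48 and 1.84 (adjusted p = 0.0115 and 0.00578), the first not without WT replicate 3 (adjusted p = 0.0890). Cebpa rose by 0.58 in cDC2s with RIPK3 (adjusted p = 0.0359; lost under 5 of 14 alternatives), and Srebf2 was lower with RIPK3 than with BimS in cDC1s by -0.25 (adjusted p = 0.00289; lost with limma, adjusted p = 0.0519).

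Of 12 PPAR target genes tested in cDC1s, 3 rose with BimS and 4 with RIPK3, and of 11 in cDC2s 2 and 3 rose, Cd36 among them in each. Ucp2 rose by 0.15 and 0.24 in cDC1s (adjusted p = 0.0445 and 0.000591), the first lost under 8 of 15 alternatives and the second with limma (adjusted p = 0.517). The 14 hypoxia-responsive genes, chosen because Hilpda is one, went in both directions in cDC1s, where 1 rose and 2 fell with BimS and 2 rose and 2 fell with RIPK3. Pfkfb3 and Vegfa fell by 0.28 each in cDC1s with BimS (adjusted p = 3.07e-05 and 0.000242). In cDC2s 3 rose with BimS and 5 with RIPK3, Pfkfb3 by 0.64 and 0.76, Vegfa by 0.40 and 0.58 and Slc2a1 by 0.39 and 0.57 (adjusted p = 7.23e-05, 2.34e-05, 0.00232, 0.000126, 0.00838 and 0.000601). With limma on unnormalized values the calls of Vegfa and Slc2a1 in cDC2s were lost (adjusted p = 0.0586 to 0.208). That of Slc2a1 with BimS was also lost without BimS replicate 2 (adjusted p = 0.0548). Slc2a1, the glucose transporter, also rose in cDC1s by 0.27 and 0.32 (adjusted p = 0.00709 and 0.00101), both lost with limma (adjusted p = 0.280 and 0.295) and the first also without WT replicate 3 (adjusted p = 0.103). With RIPK3 in cDC1s, P4ha1 rose by 0.43 and Egln1 fell by 0.34 (adjusted p = 0.00150 and 0.00180), the first lost with limma (adjusted p = 0.123). Between the debris types in cDC1s, P4ha1 was higher with RIPK3 by 0.35 and Vegfa by 0.20 (adjusted p = 0.0324 and 0.0320), calls lost under 4 and 5 of 15 alternatives.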

How the data were processed

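Medium of TC-1 WT, TC-1-iBimS or TC-1-iRIPK3 cells was added to splenic dendritic cells, and cDC1s and cDC2s were sorted and sequenced from polyadenylated RNA. The authors aligned the reads with STAR 2.7.10a to GRCm39 and deposited raw counts per gene, one column per sample, which were used here. Their table of normalized log2 values was not used. Gene totals per sample ran from 16095159 to 21645289 counts, and rows without an identifier held 0.0258% to 0.0366% of the counts and were left out. Of 31091 gene identifiers, 30854 matched GENCODE M39, the source of names, coordinates and canonical transcripts.

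Samples were grouped by their labels. The labels do not say that replicates were separate cultures or animals, so p-values measure only the spread between these samples. The study transformed counts as log2(count + 1) and ran limma, per its methods on the raw count matrix. Here the counts were fitted with edgeR 4.0.16 in R 4.3.3 (quasi-likelihood, robust, TMM), leaving out genes at 0 in more than 50% of the fitted samples. Each subset was fitted alone, and all 17 samples together for cDC1s against cDC2s and for interactions. P-values were Benjamini-Hochberg adjusted over all genes tested, with a threshold of 0.05, and 95% intervals are 1.96 standard errors. Where the samples of a group had 3 counts or fewer, no fitted fold change is given for a gene, and Fabp4 is given as a ratio of summed counts with its counting interval. Alternatives were DESeq2 1.42.0, limma 3.58.1 on log2(count + 1), RLE size factors, filterByExpr, no filter, the replicate number as a block, and each sample left out. The scripts were tested on simulated counts with 200 changed genes. These counts were drawn with no shared deviation of same-numbered samples, so that test cannot show how the fit without a block handles such pairing.

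Same-numbered samples of a subset deviated together (16 of 16 pairs with r over 0.1, median 0.355, against 4 of 32 pairs of unlike numbers). The numbers thus pair samples within a subset, and the blocked value stands beside a member result whose call it changed. All other calls, and the shares of all genes, are of the fit without the block. With the block more genes passed in the cDC2 comparisons, as given in the closing section. List genes were followed only where the main fit called them, so calls that the block would add are not given. The members and gene lists were chosen with earlier results of these data known. All 10 members were named, and from each list up to 3 called genes per comparison between media with the largest absolute change among those with a mean log2 CPM of 1 or more. Other list genes given with values, among them those named for cDC1s against cDC2s in the closing section, fall outside that rule and were chosen after their values were seen. A gene of these lists that the rule would name is not reported here.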

Additional observations from a re-analysis of the deposited data

Results flagged for a closer look

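The values here are genes of the fatty acid and droplet lists, none of them members, whose response to debris differed between the subsets by the interaction test of edgeR over all 17 samples. Each value is the log2 fold change in cDC1s minus that in cDC2s. The response of Soat1 was higher in cDC1s by 0.80 with BimS (adjusted p = 3.55e-05) and 0.89 with RIPK3 (adjusted p = 2.04e-05), and that of Lipa by 0.76 (adjusted p = 0.000133) and 0.89 (adjusted p = 2.97e-05). Plin3, a relative of Plin2, differed by 0.43 with BimS (adjusted p = 0.0477), a call lost under 16 of 23 alternatives. Pfkfb3 differed by -0.93 with BimS (adjusted p = 2.02e-06) and -1.07 with RIPK3 (adjusted p = 3.86e-07). Vegfa differed by -0.69 (adjusted p = 3.55e-05) and -0.68 (adjusted p = 7.43e-05), and Ndrg1 by -0.57 with RIPK3 (adjusted p = 0.00426), where limma lost the RIPK3 calls of both (adjusted p = 0.0813 and 0.283). Fads2 differed by -1.35 with RIPK3 (adjusted p = 0.00895), which was lost without replicate 2 of cDC2s with RIPK3 (adjusted p = 0.0658). Cebpa differed by -0.94 with RIPK3 (adjusted p = 0.0270), lost under 8 of 23 alternatives.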

How the results depend on the processing

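No member changed direction in a call under any alternative, and neither did a list gene with a mean log2 CPM of 1 or more. Of 90 member results, 75 kept their side of the threshold under every alternative and 15 did not. Most of the 75 were results that did not pass in the first place. Among the calls between media, at least 1 alternative lost that of Fabp5 in cDC1 RIPK3 against WT. The same held for Fabp5 in cDC2 RIPK3 against WT and against BimS, and for Acsl1 in cDC2 RIPK3 against WT. Of 190 calls of list genes with a mean log2 CPM of 1 or more, 122 were kept by every alternative and 68 were lost by at least 1. Calls of list genes below that level were not followed. The number of members called was 1 for cDC1 RIPK3 against BimS and became 2 with the replicate block (1 to 2 with 1 sample left out). For cDC2 BimS against WT it was 1 and became 3 with the block (1 to 2 with 1 left out), and for cDC2 RIPK3 against WT it was 3 (1 to 3 with 1 left out). For cDC2 RIPK3 against BimS it was 1, with 2 for DESeq2, 3 with no filter, 3 with the block and 0 to 3 with 1 left out. For the interaction with RIPK3 against WT it was 0, with 2 without a filter, 2 with the block and 0 to 2 with 1 left out. The 2 were Plin2 and Acsl1, whose values stand beside the result. Across subsets the numbers pair less clearly, with 14 of 16 and 5 of 8 pairs over 0.1. The block changed no other call of a member than those given here and beside the results.

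Counts over all genes moved by more than 1.5 times in these settings. With limma without normalization, 1510 genes passed for cDC1 BimS against WT (2576 with edgeR) and 403 for cDC1 RIPK3 against BimS (810). The block gave 1730 for the latter, 4103, 4126 and 2755 for the 3 cDC2 comparisons (1349, 1387 and 73) and 443, 449 and 27 for the interactions (166, 217 and 6). For cDC2 RIPK3 against BimS, DESeq2 gave 141, filterByExpr 46, no filter 300 and limma 148. For the interactions, DESeq2 gave 261 with BimS and 17 for RIPK3 against BimS, no filter 315, 371 and 25, and limma 67, 109 and 3. Leaving out samples, an alternative for these counts chosen after seeing the data, gave 489 for cDC1 RIPK3 against BimS without BimS replicate 3, 0 to 214 for cDC2 RIPK3 against BimS, and 0 to 10 for its interaction. In cDC2s, BimS against WT gave 896, 878 and 783 without BimS replicate 1, BimS replicate 2 and WT replicate 2. RIPK3 against WT gave 658, 622 and 916 without RIPK3 replicate 1, RIPK3 replicate 2 and WT replicate 2, and the interactions fell to 93 and 111. Limma without normalization shifted the median of all genes by -0.12, -0.17 and -0.10 for cDC1 RIPK3 against WT and cDC2 RIPK3 against WT and BimS, and by 0.16 between subsets. The cause was not tested. Depth limits Hilpda in cDC1s, at 9 to 31 counts, and Fabp4, Lpl and G0s2 throughout.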

Other observations

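The values here are log2 differences of cDC1s minus cDC2s with WT medium. In this comparison 46.2% of all genes passed. The lists with a lower or similar share were lipolysis with 1 higher and 1 lower of 6, droplet coat with 2 and 2 of 8, and the regulators with 1 and 6 of 14, and fatty acid oxidation had 7 and 4 of 20. Of 10 genes of uptake and binding 6 were higher and 1 was lower, of 8 of acyl-CoA synthesis 5 and 1, of 13 of triglyceride synthesis 4 and 5, of 13 of fatty acid synthesis 5 and 4, and of 14 hypoxia-responsive genes 4 and 7. Of 12 PPAR target genes, 7 were higher and 1 was lower in cDC1s, with a median of 1.47. The carnitine carrier gene Slc25a20 was higher by 2.44 (869 against 159 CPM), Cd36 by 2.08 and Ucp2, a mitochondrial carrier, by 1.78. In triglyceride synthesis Agpat3 was higher by 5.11 (133 against 3.82 CPM), while Dgat1, the other enzyme that completes triglycerides beside Dgat2, was lower by -2.99 (24.3 against 191 CPM) and Gpat3 by -2.09. Among the transporters Slc27a1 and Slc27a3 were higher by 1.96 and 1.66. Acss1, which activates acetate in mitochondria, was higher by 2.90, and Acsl3, which acts at forming droplets, was lower by -1.19. In desaturation Fads1, Scd1 and Fads2 were higher by 2.30, 1.51 and 1.34. Of the regulators Ppard and Srebf1 were lower by -0.67 and -0.61. The hypoxia-responsive genes Egln3 and Ndrg1 were lower by -3.95 and -3.60, as was Hilpda, while Pdk1 was higher by 1.84.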
